A study of Rattus norvegicus with 8 samples.

Results

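The ABC drug efflux pumps examined here were the 6 rat genes Abcb1a, Abcb1b, Abcc1, Abcc2, Abcc3 and Abcc4. They were taken as all non-control probes whose RefSeq accession belongs to one of these genes, which gave 10 probes of the 30367 on the array and 6 of the 15637 genes that could be named. All 6 genes were measured by at least 1 probe that passed the filter on dim probes. Kidney RNA was compared between 4 samples from rats given saline and 4 from rats given colistin at 30 mg/kg, both at day 28, all male and labelled 10 weeks old. Colistin is a polymyxin antibiotic used against resistant Gram-negative bacteria, and injury of the kidney tubule limits its use. The labels give no strain and no dosing schedule. They number the samples but do not state that each came from its own animal. The p-values therefore reflect only how far these samples varied, which may include technical variation. Each sample was labelled with Cy3 and hybridised to its own array.

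ABC transporters use the energy of ATP to carry substrates across membranes, and the pumps described here move drugs, toxins and conjugated metabolites out of cells. P-glycoprotein, which rodents encode in a pair of neighbouring genes, Abcb1a and Abcb1b, exports bulky and often cationic or neutral compounds. The ABCC pumps, also called multidrug resistance-associated proteins (MRPs), export organic anions and conjugates with glutathione, glucuronate or sulfate. In the proximal tubule P-glycoprotein, MRP2 (Abcc2) and MRP4 (Abcc4) lie on the apical membrane and secrete into urine, whereas MRP1 (Abcc1) and MRP3 (Abcc3) are known as basolateral pumps of epithelia.

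The sequences before the start sites of Abcc2, Abcb1b and Abcb1a are shown because Abcc2 had the only change among these genes that passed the main test, Abcb1b had the other change of about the same size, and Abcb1a is the neighbouring copy of Abcb1b with values near background. Each is the 250 bases before the annotated start, from RefSeq on the rat build GRCr8, written 5′ to 3′ on the strand of the gene. RefSeq sequences matched 5 of the 6 genes, all but Abcc3. Capitals mark every match to 5 motifs searched on both strands.
Abcc2, chr1:252613625-252613874, plus strand: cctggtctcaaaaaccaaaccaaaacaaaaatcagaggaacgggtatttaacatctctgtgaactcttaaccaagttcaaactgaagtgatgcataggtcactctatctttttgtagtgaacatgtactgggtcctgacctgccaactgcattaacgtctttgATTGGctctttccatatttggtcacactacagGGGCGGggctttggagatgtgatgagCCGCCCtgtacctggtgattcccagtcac
Abcb1b, chr4:26280030-26280279, minus strand: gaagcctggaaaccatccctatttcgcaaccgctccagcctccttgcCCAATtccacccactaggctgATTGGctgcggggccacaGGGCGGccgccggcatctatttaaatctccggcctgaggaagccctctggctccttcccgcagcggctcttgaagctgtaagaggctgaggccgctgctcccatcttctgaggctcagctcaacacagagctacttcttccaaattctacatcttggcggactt
Abcb1a, chr4:26397649-26397898, minus strand: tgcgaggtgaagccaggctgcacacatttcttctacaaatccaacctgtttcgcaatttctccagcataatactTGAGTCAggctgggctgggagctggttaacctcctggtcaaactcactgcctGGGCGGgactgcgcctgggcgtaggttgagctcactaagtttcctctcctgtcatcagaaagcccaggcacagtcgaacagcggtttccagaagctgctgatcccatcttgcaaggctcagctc

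The motifs were CCAAT (the box bound by NF-Y), GGGCGG (the GC box bound by Sp1), TGACNNNGC (the core of the antioxidant response element bound by NRF2), TGANTCA (bound by AP-1) and CACGTG (an E-box). One site can match both TGACNNNGC and TGANTCA. Abcc2 held a CCAAT box on the opposite strand, beginning 87 bases before the start, and GC boxes beginning 55 and 29 bases before it. Abcb1b held 2 CCAAT boxes, at 203 and 182 bases before the start and on opposite strands, and a GC box at 164. Abcb1a held no CCAAT box, 1 AP-1 motif at 176 bases and 1 GC box at 124. Among all 33469 promoter windows of this length 34.0% held a CCAAT box, 30.5% a GC box, 10.1% the antioxidant core, 6.34% the AP-1 motif and 5.59% the E-box. These matches describe letters in the windows and were not measured as binding sites.

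Values are given as log2 of the background-corrected spot signal minus the 75th percentile of the same array, so that 0 is the brightness below which 75% of probes lay. Levels of different probes cannot be set against each other. Saline arrays were dimmer before scaling, with a 75th percentile of 156 to 197 signal units against 271 to 317 on colistin arrays, and 69.3% to 75.8% of their spots were well above background against 79.1% to 83.9%. Colistin and saline were compared with limma and Benjamini-Hochberg adjustment over 12379 genes. Of these, 250 passed (2.02%), 182 higher and 68 lower after colistin, or 72.8% higher. With normexp, another background correction, 3350 passed and 20.4% of them were higher. Over all genes the median change on the log2 scale was -0.14, and -0.34 with normexp. Kidney markers of the proximal tubule were well above background on all 8 arrays where checked (Kap, Lrp2 and Slc34a1, chosen after their values were seen).

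Among the 6 efflux pump genes 1 passed the test, Abcc2, which was 10.3-fold higher in colistin kidneys, where 2.02% of all genes passed and 1.47% passed as higher. Abcb1b was 10.04-fold higher by its brighter probe and 45.3-fold higher by its other probe, whose saline readings were dim. The log2 change of that dimmer probe was 5.50, and 2.995 with normexp. Of the Abcb1b probes the dimmer alone passed, in a separate fit over probes. Abcc3 was 5.46-fold higher without passing, and its saline values lay mostly at background. Abcc4 and Abcc1 had fold changes of 1.05 and 1.13, and Abcb1a was close to background in both groups. The colistin values lay entirely above the saline values for Abcc2 and Abcb1b, both well above background on all 8 arrays, where 6.91% of all genes tested did so and 18.6% did not overlap in either direction. They did so for Abcc3 too, which is given as a description only, since it passed the filter through the colistin arrays alone.

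**Figure D1:**
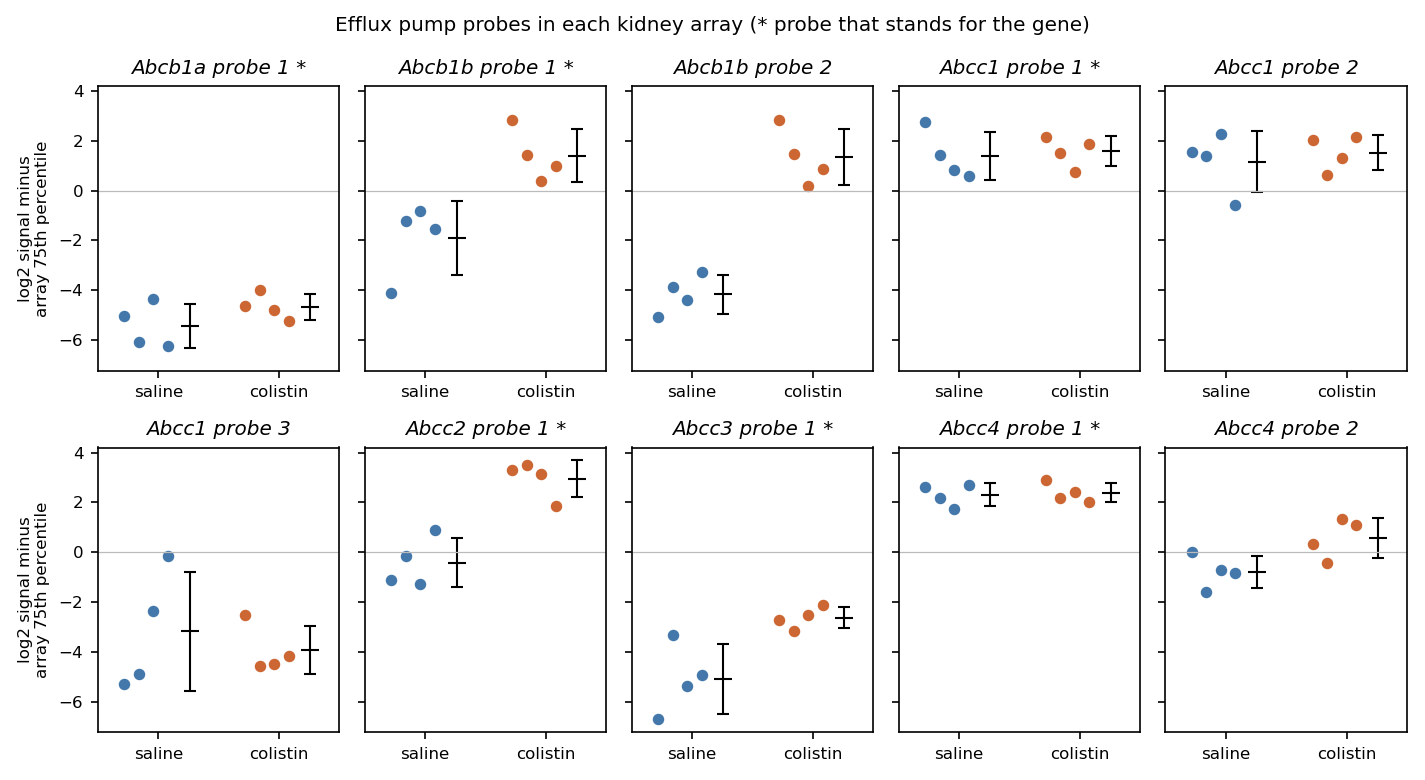
Log2 signal minus the array's 75th percentile (vertical axis) for each of the 10 probes of the 6 efflux pump genes, with 1 point per array (blue saline, orange colistin), and the mean ± SD of 4 arrays in black. All colistin points lie above all saline points for Abcc2, Abcc3 and both probes of Abcb1b, while the groups overlap for every probe of Abcb1a, Abcc1 and Abcc4.

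Abcc2 encodes MRP2, which exports glutathione and glucuronide conjugates across the apical membrane of the proximal tubule. Its log2 signal was -1.12, -0.17, -1.27 and 0.88 on saline arrays 1 to 4 and 3.30, 3.49, 3.13 and 1.86 on colistin arrays 1 to 4. The lowest colistin value, on array 4, was 0.98 above the highest saline value, also on an array numbered 4. The mean was -0.42 ± 0.99 (SD, n = 4) after saline and 2.95 ± 0.74 (SD, n = 4) after colistin. The rise was 3.36 ± 0.58 (log2 fold change ± SE), with a 95% interval from 4.06-fold to 26.1-fold (limma adjusted p = 0.0306). Relative to the median of all genes the rise was 3.50, and with normexp 3.34.

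The Abcc2 probe was printed as 10 spots on each array, and the SD between these spots was between 0.04 and 0.13 on the log2 scale, well under the SD between arrays of a group. Well above background in all 8 samples, it was the member with the most replicate spots. Within slides 1, 2 and 3, each of which held both groups, the rise was 3.61, 3.29 and 3.85. The call was kept in 2 of the 8 fits that left out 1 array, those without saline array 4 or colistin array 4, and adjusted p ranged from 0.0205 to 0.0917 over the 8 fits. Those without saline arrays 1, 2 and 3 gave 0.0739, 0.0603 and 0.0610, and those without colistin arrays 1, 2 and 3 gave 0.0917, 0.0894 and 0.0843. With slide as a block adjusted p was 0.0869.

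Abcb1b encodes 1 of the P-glycoprotein copies of rodents. Its brighter probe read -4.11, -1.21, -0.82 and -1.53 on saline arrays 1 to 4 and 2.85, 1.43, 0.38 and 0.995 on colistin arrays 1 to 4. Saline array 1 stood lowest and colistin array 1 highest, and the groups were separated by 1.19. The change was 3.33 ± 0.82 (log2 fold change ± SE, n = 4 per group), with a 95% interval from 2.73-fold to 37.0-fold, and did not pass over all genes (limma adjusted p = 0.0859). An exact permutation of the 8 arrays gave p = 0.0286 for this value alone, two-sided and not adjusted, which is the smallest p that 4 against 4 arrays can give.

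The other Abcb1b probe read -5.10, -3.89, -4.39 and -3.27 on saline arrays 1 to 4, the first of them not well above background. On colistin arrays 1 to 4 it read 2.84, 1.46, 0.19 and 0.88, in the same order as the brighter probe. The groups were separated by 3.45. The change of this probe was 5.50 ± 0.63 (SE), which passed in a fit over all 23659 kept probes (limma adjusted p = 0.0114), where 1.48% of probes passed and 1.1% passed as higher. This fit was chosen after the data were seen. When single arrays were omitted that probe passed each time (8 of 8 fits), with changes from 5.002 to 5.89 and adjusted p from 0.0187 to 0.0376, and had adjusted p = 0.0775 with slide as a block. The mean of both probes rose by 4.42 (adjusted p = 0.0217), and with normexp the brighter probe rose by 2.34 (adjusted p = 0.0327). With normexp the dimmer probe rose by 2.995 (limma adjusted p = 0.0197 over all kept probes), so the size of its change depended on the background correction.

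Abcb1a, the other P-glycoprotein gene, had 1 probe. It read -5.04, -6.10, -4.35 and -6.25 on saline arrays 1 to 4, none of them well above background, and -4.64, -4.00, -4.80 and -5.24 on colistin arrays 1 to 4, all well above it. The groups overlapped. It passed the filter on dim probes through the colistin arrays alone. On each saline array whichever was higher was then used, the Abcb1a reading or the dimmest probe that cleared background there. Against these saline values the mean of the colistin arrays was 1.22-fold higher. That value takes no account of how arrays vary and is not a firm lower bound, since it holds for 1 background correction. The fitted change of 0.77 ± 0.51 (SE) did not pass (limma adjusted p = 0.382) and was -0.51 with normexp (adjusted p = 0.0423), a turn of sign for a gene near background. Relative to the median of all genes the change was 0.91, and with normexp -0.17.

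The change of Abcb1a could not be set against that of Abcb1b, although this pair was among the 3 pairs of genes compared. With no saline reading of Abcb1a well above background, neither the size nor the sign of its change is settled. Whether either probe also binds the transcript of the neighbouring copy was not tested.

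Abcc4 encodes MRP4, the other apical ABCC pump of the proximal tubule, which exports cyclic nucleotides, urate and organic anion drugs. Its brighter probe read 2.63, 2.18, 1.73 and 2.72 on saline arrays 1 to 4 and 2.91, 2.17, 2.44 and 2.03 on colistin arrays 1 to 4. These ranges overlapped almost wholly. The change was 0.08 ± 0.35 (SE), with a 95% interval from 0.599-fold to 1.85-fold (limma adjusted p = 0.913), so the interval holds changes of that size in either direction, and its sign turned without saline array 3 or colistin array 1. The second probe read 0.0035, -1.59, -0.72 and -0.84 after saline and 0.35, -0.44, 1.35 and 1.09 after colistin. It gave 1.37 ± 0.49 (SE), or 2.59-fold, and did not pass over all probes (adjusted p = 0.152, with 0.157 to 0.283 when 1 array was left out).

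Abcc2 rose more than Abcc4. The within-array difference, Abcc2 minus Abcc4, was -3.74, -2.34, -2.997 and -1.84 on saline arrays 1 to 4 and 0.39, 1.33, 0.69 and -0.17 on colistin arrays 1 to 4. No value of one group reached the other. The shift was 3.29 ± 0.52 (SE), a 9.78-fold relative change (exact permutation p = 0.0286, adjusted p = 0.0429 over 3 pairs). It lay between 2.95 and 3.59 when 1 array was left out and was 2.64 with all probes of each gene averaged, with the same adjusted p. That adjusted p is under 0.05 only because the pair Abcb1a minus Abcb1b had the same exact p. The Abcb1a pair could not itself be read, since Abcb1a lay near background after saline.

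**Figure D2:**
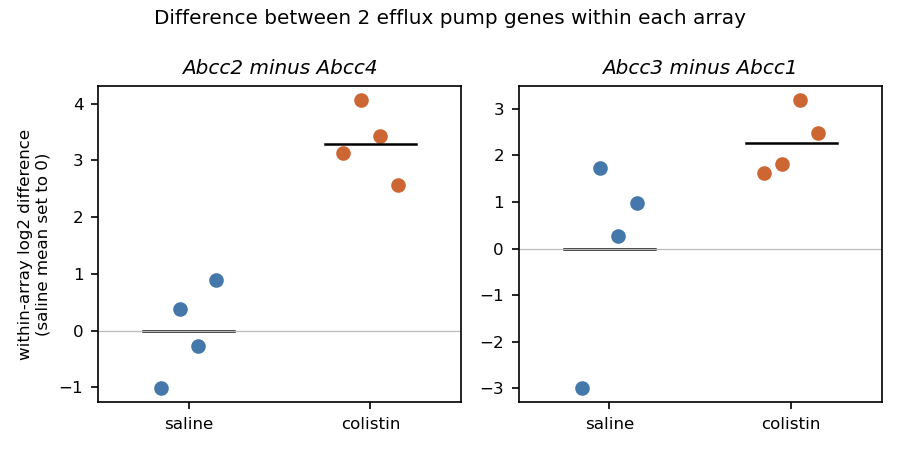
Within-array log2 difference between 2 efflux pump genes (vertical axis, shifted so that the saline mean is 0), with 1 point per array and the group mean as a line. The colistin arrays lie apart from the saline arrays for Abcc2 minus Abcc4 (mean shift 3.29) and overlap them for Abcc3 minus Abcc1 (2.27), where 3 of the 4 saline readings of Abcc3 did not clear background.

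Abcc3 encodes MRP3, a basolateral pump for glucuronides and bile acids. It read -6.72, -3.32, -5.37 and -4.93 on saline arrays 1 to 4, where it was well above background on array 2 alone, and -2.71, -3.16, -2.54 and -2.13 on colistin arrays 1 to 4, all well above background. Saline array 2 came within 0.15 of the lowest colistin array. The change was 2.45 ± 0.67 (SE, limma adjusted p = 0.106), with most saline readings at background, and Abcc3 entered the test through the colistin arrays alone. Without saline array 2 it was 3.04 (adjusted p = 0.0431, against 0.0431 to 0.217 over the 8 fits that left out 1 array), and with normexp it was 0.11 (adjusted p = 0.666).

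Abcc1 encodes MRP1, which exports glutathione conjugates and leukotrienes and is found in most tissues. The brightest of its 3 probes read 2.76, 1.43, 0.84 and 0.58 after saline and 2.16, 1.51, 0.76 and 1.88 after colistin. The colistin values lay within the saline range. The change was 0.17 ± 0.55 (SE), with a 95% interval from 0.471-fold to 2.70-fold (limma adjusted p = 0.868). Its second probe gave 0.37 ± 0.65 (SE) and its dimmest -0.75 ± 1.14 (SE), so the probes differed in sign. On that dimmest probe saline values ran from -5.30 to -0.15, a wider spread than in any other probe of these genes. The lowest of them, on saline array 1, was not well above background. The mean of all 3 probes gave -0.07.

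The difference Abcc3 minus Abcc1, the pair of basolateral pumps, shifted by 2.27 ± 1.101 (SE) and did not pass (exact permutation p = 0.0571, adjusted p = 0.0571 over 3 pairs). Saline array 1 was lowest at -9.48, the highest saline array was at -4.75, and colistin arrays ran from -4.87 to -3.31. The groups overlapped narrowly, and 3 of the 4 saline values rest on Abcc3 readings not well above background. With normexp the shift was -0.19.

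**Figure D3:**
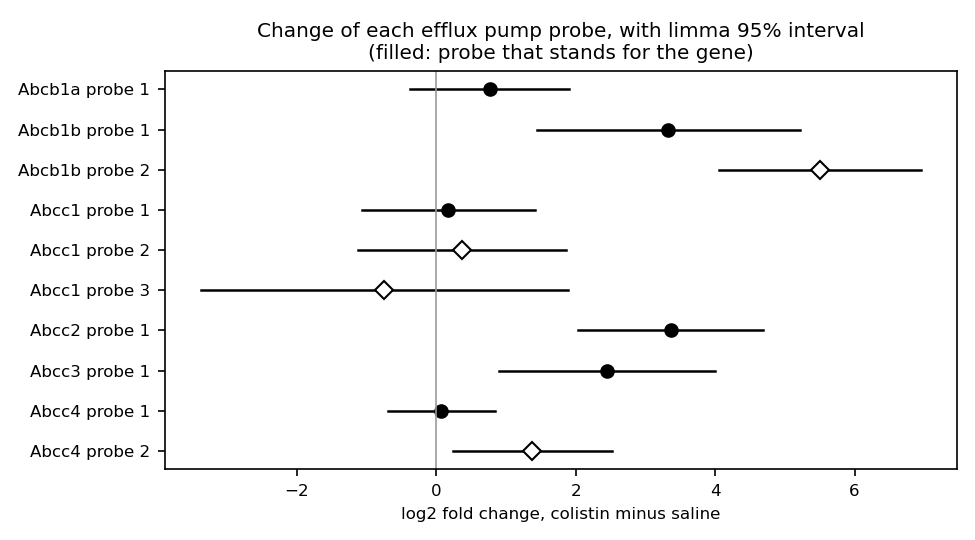
Log2 fold change, colistin minus saline, of each of the 10 probes with its 95% limma interval from the fit over all kept probes (filled circles, the probe that stands for the gene; open diamonds, the other probes). The intervals of Abcc2, Abcc3, both Abcb1b probes and the second Abcc4 probe lie above 0, before any adjustment for the number of probes.

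**Figure D4:**
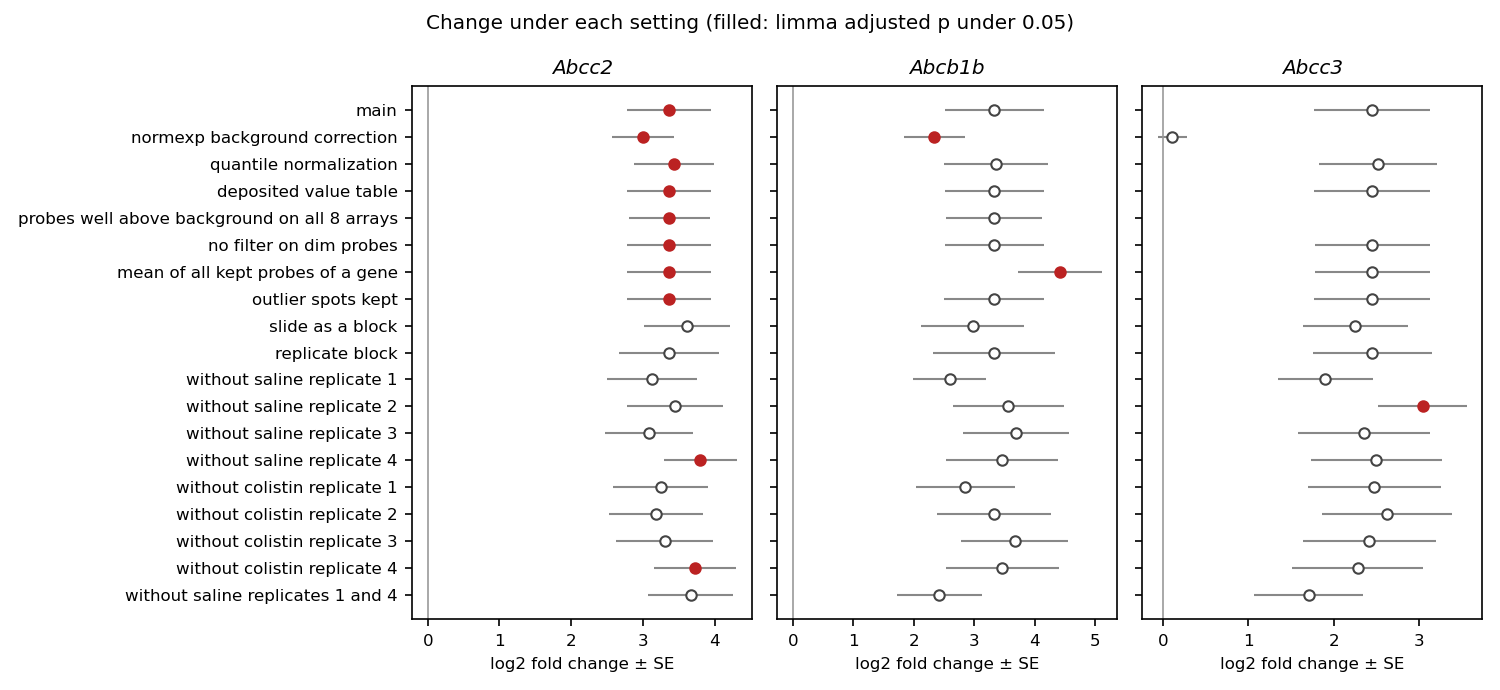
Log2 fold change ± SE of Abcc2, Abcb1b and Abcc3 (horizontal axis) under each setting of the fit (rows), filled where limma's adjusted p was under 0.05. Each estimate shown lies above 0, which fits that leave out arrays could not change, since the groups do not overlap. Abcc2 passes without saline replicate 4 or colistin replicate 4 among the 8 fits that left out 1 array.

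Most of these changes differed in size between slides. Within slides 1, 2 and 3 Abcb1b changed by 4.24, 1.59 and 2.74 and Abcc3 by 2.66, 0.77 and 2.95. Abcb1a gave 1.65, 1.30 and -0.58, Abcc1 -0.16, -0.67 and 1.18, and Abcc4 -0.50, 0.26 and 0.75. Each slide held at most 3 arrays, so these are values without a test. The sign was positive on all slides for Abcc2, Abcb1b and Abcc3. It could not be otherwise, since the groups of these genes did not overlap. For Abcc3 this is a description only, since it entered the test through the colistin arrays alone.

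The other ABC transporters gave 1 call. Of 34 on the array, 28 passed the filter on dim probes, 3 of them through the colistin arrays alone. Among the 28, 1 rose and 0 fell (limma, with 2 at an unadjusted p under 0.05), and the median log2 fold change was -0.01 against -0.14 for all genes. The gene that rose was Tap2, a subunit of the peptide transporter that loads class I histocompatibility molecules, which pumps no drug. Tap2 read from -5.21 to -3.08 on saline arrays and from -2.19 to -0.30 on colistin arrays, a rise of 3.01 ± 0.59 (SE, adjusted p = 0.0461). When single arrays were omitted, 0 to 1 of these other ABC genes passed, the 1 without saline array 1. Drug pumps of the list did not pass. Abcg2, the breast cancer resistance protein of the apical membrane, gave 0.42 ± 0.68 (adjusted p = 0.729). Abcb4, the phospholipid transporter next in sequence to P-glycoprotein, gave -0.39 ± 0.55 (adjusted p = 0.690). The ABCC genes Abcc5, Abcc6 and Abcc10 gave 0.31 ± 0.41, 0.84 ± 0.54 and -0.26 ± 1.18, with adjusted p of 0.660, 0.373 and 0.912.

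Uptake carriers feed organic ions into tubule cells before the pumps export them. Of 23 tested carriers and other exporters 1 rose and 1 fell, and the median was -0.00186. With single arrays omitted, 0 to 2 of them passed. Slc22a6, the basolateral organic anion transporter OAT1, fell by 1.91 ± 0.33 (SE, adjusted p = 0.0297) and its relative Slc22a8 (OAT3) gave -1.48 ± 0.33 (adjusted p = 0.0698). Slc22a6 read from 7.23 to 7.59 after saline and from 4.92 to 6.07 after colistin, without overlap. Slc2a9, a urate transporter, rose by 4.20 ± 0.74 (adjusted p = 0.0322). Slc47a1 (MATE1), the apical exporter of organic cations, gave 0.71 ± 0.55 (adjusted p = 0.457), and Slco4c1, a basolateral organic anion carrier, gave -1.76 ± 1.40 (adjusted p = 0.466). In 5 of these carriers the colistin values lay entirely below the saline values, and in 1 entirely above, against 11.7% and 6.91% of all genes.

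Enzymes that conjugate compounds for the ABCC pumps gave 0 calls among 28 tested (limma, with 8 at an unadjusted p under 0.05), and the median was 0.10. The glutathione transferase genes Gstm1 and Gstp1 had the larger changes without overlap between groups, 3.88 ± 1.005 (adjusted p = 0.0952) and 2.35 ± 0.52 (adjusted p = 0.0692), and Gsta1 gave -1.49 ± 0.41 (adjusted p = 0.106). These 3 genes were chosen after their values were seen. Regulators of pump genes and the apical anchor proteins also gave 0 calls among 29 tested (limma, with 7 at an unadjusted p under 0.05), with a median of -0.02. Nfe2l2, which encodes NRF2, gave 0.42 ± 0.52 (adjusted p = 0.649) and Nr1i2, the xenobiotic receptor PXR, gave -0.38 ± 0.56 (adjusted p = 0.702). The proximal tubule factor Hnf4a gave -1.58 ± 0.38 (adjusted p = 0.0833), and Pdzk1, a scaffold of apical transporters, gave -1.48 ± 0.61 (adjusted p = 0.203).

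**Figure D5:**
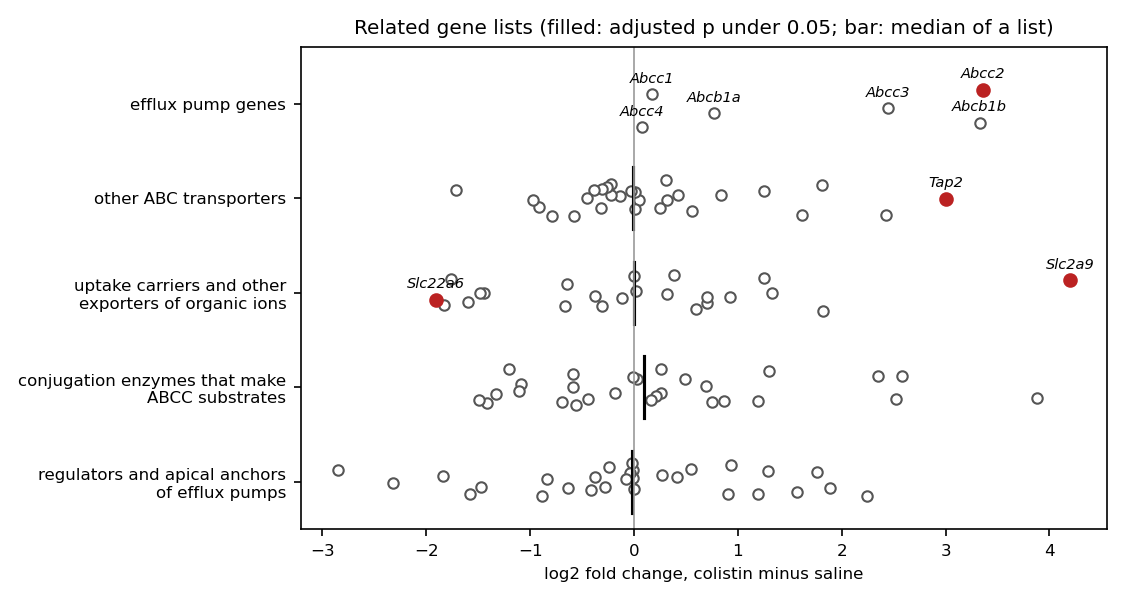
Log2 fold change, colistin minus saline (horizontal axis), of the 6 efflux pump genes and of the tested genes of 4 related lists, with 1 point per gene, filled where limma's adjusted p over all genes was under 0.05 and a bar at the median of each list. Abcc2, Tap2, Slc2a9 and Slc22a6 pass, and the 4 list medians lie between -0.02 and 0.10.

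Markers of several kidney cell types moved in the same comparison, and in bulk tissue fewer cells of a type and less RNA per cell cannot be told apart. Summed over 11 markers, the log2 level of the proximal tubule list was 9.58 to 10.4 on saline arrays and 8.48 to 9.37 on colistin arrays. Of the 11, 2 fell, Slc22a6 (above) and Aqp1, a water channel (-1.72 ± 0.29, adjusted p = 0.0282). Over all genes 0.549% passed as lower and 1.47% as higher. The list did not move as a whole: 3 of the 11 had a positive change without passing, the larger being Cubn (1.25 ± 0.84, adjusted p = 0.389) and Slc5a2 (1.14 ± 0.47, adjusted p = 0.200). Endothelium also expresses P-glycoprotein. Its 10 markers summed to 5.26 to 5.88 after saline and 2.32 to 3.03 after colistin, and 4 of 10 fell, led by Flt1 (-3.48 ± 0.65, adjusted p = 0.0386) and Pecam1 (-3.38 ± 0.41, adjusted p = 0.0101). Of 9 tubular injury markers 3 rose, led by Spp1, osteopontin (5.70 ± 0.53, adjusted p = 0.00353), and Anxa2 (4.64 ± 0.48, adjusted p = 0.00572). In the same list 2 had a negative change without passing, Vcam1 (-1.51 ± 0.58, adjusted p = 0.185) and Krt18 (-0.53 ± 1.57, adjusted p = 0.860). The injury list summed to 2.71 to 3.62 after saline and 6.03 to 6.81 after colistin. The groups did not overlap on these 3 sums. The markers that passed in the other kidney and blood cell lists were all lower after colistin: 1 of 5 for the thick ascending limb (Egf, -5.41), 1 of 7 for principal and intercalated cells (Slc26a4, -3.34), 1 of 5 for podocytes (Podxl, -3.15), 1 of 7 for macrophages (Ctss, -2.01) and 2 of 4 for erythrocytes (Hbb, -3.74, and Hba-a1, -2.79). The part of these markers in the efflux pump values was not tested.

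Liver, a main site of Abcc2 expression, was represented by 4 markers of which 0 passed (limma, with 2 at an unadjusted p under 0.05), and 3 entered through the colistin arrays alone. Their summed level ran from -2.98 to 0.38 on saline arrays and from -1.55 to 5.12 on colistin arrays, so the sums overlapped. All 4 had a positive log2 fold change, with a median of 3.30, close in size to that of Abcc2. This median is a description only, since Apoa1, Alb and Ttr were the 3 that entered through the colistin arrays alone. For 2 of the 4 the colistin values lay entirely above the saline values, against 6.91% of all genes. These were Apoa1 (3.56 ± 0.93, adjusted p = 0.0968), again as a description only, and Serpina1 (3.49 ± 1.36, adjusted p = 0.188). Alb, the albumin gene, read -6.90, -0.60, -6.66 and -6.91 after saline and -3.78, 3.29, 0.11 and -8.21 after colistin. Ttr, which encodes transthyretin, read -5.45, -1.01, -4.56 and -5.40 after saline and -4.61, 3.68, 0.98 and -5.58 after colistin. Among colistin arrays, Alb, Ttr, Serpina1 and Abcc2 were each highest on array 2 and lowest on array 4. Colistin array 1 differed, with Abcc2 at 3.30, against 3.49 on array 2, and Alb, Ttr and Serpina1 at -3.78, -4.61 and -2.76. Apoa1 was highest on colistin array 2 but lowest on array 3 (-2.93), and Abcc3 was lowest on array 2 and highest on array 4. Among saline arrays Alb, Ttr, Apoa1 and Abcc3 were highest on array 2, where Serpina1 was lowest (-5.14), and Abcc2 was highest on array 4. Of the 3 tested intestinal markers 0 passed (limma, with 1 at an unadjusted p under 0.05), and they summed to 0.76 to 1.89 after saline and 0.45 to 1.55 after colistin. The part of the liver and intestinal markers in the pump values was not tested.

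Genes whose pattern over the 8 arrays was most like each pump were ranked by Pearson correlation of log2 values, as a description over arrays that share the difference between groups. For Abcc2 these were Tmbim1 (r = 0.982) and Vat1 (r = 0.976), for Abcb1b Rpl22 (r = 0.983) and Kcnk5 (r = 0.973), and for Abcc3 Spata25 (r = 0.988) and Carmil1 (r = 0.965). The closest genes to Abcb1a were Ap1ar (r = 0.982) and Rab35 (r = 0.961). Abcc1 was closest to Socs4 (r = 0.933) and Imp4 (r = 0.926), and Abcc4 to Dclre1c (r = 0.953) and Irs1 (r = 0.903). No gene of this group was among the closest genes of another.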

How the data were processed

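The authors deposited spot intensity on a linear scale, in 1 scanner table per array. Per the submitters' processing notes the tables come from Agilent Feature Extraction 10.5. Per the file headers the processed signal is corrected for background within the array. Flags for spots well above background and for outlying spots are other columns of the same deposited tables. The authors also deposited a table of log2 values. Differences between its columns matched those of log2 processed signal (r of 0.999996 or more across probes), columns were offset much as the 75th percentiles are, and probes were centred at their medians. The medians of its columns lay between -0.13 and 0.11.

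Outlier spots were left out and spots of a probe averaged on the log2 scale, which gave 30367 probes. Each array's 75th percentile was subtracted. A probe was kept if 3 or 4 arrays of 1 group read well above background (23659 probes). The array's own annotation is on an older build, so accessions were matched to a RefSeq table of GRCr8 for names, and 18643 probes were named. The brightest kept probe by mean stood for a gene, which left 12379 genes. Groups were compared with limma 3.58.1 (lmFit, eBayes; R 4.3.3), two-sided, with a threshold of 0.05 on the adjusted p. Differences between 2 pumps within an array were tested by exact permutation over 70 splits. The scripts were tested on simulated data.

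All 6 pump genes are reported, with up to 2 passing genes per list and direction with the largest absolute change, a fixed set of related genes given whatever their result (1 of them is not reported here), and the 2 genes most like each pump. The members and lists were chosen with earlier results of these data known. The scanner tables gave no mean spot signal, so normexp with an offset of 50 used the median spot signal. Arrays lay on 3 slides, each scanned at its own time, with saline arrays 1 and 4 and colistin array 2 on slide 1, saline array 2 and colistin array 3 on slide 2, and saline array 3 and colistin arrays 1 and 4 on slide 3. Precision is limited by having 4 arrays per group.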

Additional observations from a re-analysis of the deposited data

Results flagged for a closer look

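Of 40 groups of 4 arrays examined for a single far value, 3 had one, and chance alone flags about 1 in 20 groups. Abcc6 was low on colistin array 2 (-1.89, against -0.67 to -0.43 on the other colistin arrays, a gap of 0.839 of the whole range). Slco4c1 was low on saline array 3 (-4.54, against -0.40 to 0.38, a gap of 0.842 of the range). Nfe2l2 was high on colistin array 4 (0.39, against -0.83 to -0.63, a gap of 0.835 of the range). None of the 6 efflux pump genes had such a value by the probe that stands for the gene.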

How the results depend on the processing

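Abcc2, Abcb1b and Abcc3 kept a positive change in every setting run, but that of Abcc3 was only 0.11 with normexp (limma adjusted p = 0.666). The groups of these genes did not overlap. Leaving out arrays or splitting by slide therefore could not turn the sign. Normexp gave -0.51 for Abcb1a (adjusted p = 0.0423), 2.34 for Abcb1b (adjusted p = 0.0327), -0.19 for Abcc3 minus Abcc1, and 3350 calls over all genes against 250, with 8 among carriers, 5 among conjugation enzymes and 3 among regulators. Quantile normalization gave 2.39 for Abcc3 minus Abcc1 (exact adjusted p = 0.0286) and 1 conjugation enzyme. Averaging probes gave 4.42 for Abcb1b (adjusted p = 0.0217) and -0.0684 for Abcc1, and other probes gave 5.50 for Abcb1b (adjusted p = 0.0114) and -0.75 for Abcc1. Exact permutation of 8 arrays gave p = 0.0286 for Abcb1b (3.33), not adjusted and the smallest p possible. The same p for Abcc3 (2.45) is a description only, since Abcc3 passed the filter through the colistin arrays alone. Within slides 1, 2 and 3 Abcc1 gave -0.16, -0.67 and 1.18. Abcb1a gave 1.65 and -0.58, and Abcc4 -0.50 and 0.75, on slides 1 and 3. Abcb1b gave 1.59 and Abcc3 0.77 on slide 2. With slide as a block Abcc2 gave 3.61 (adjusted p = 0.0869), 40 genes passed, and 0 other ABC genes and 0 carriers did. With no filter on dim probes 0 other ABC genes passed. Without saline arrays 1 and 4, a setting chosen after seeing the data, Abcc2 gave 3.66 (adjusted p = 0.0576), 141 genes passed, and 0 other ABC genes and 0 carriers did. In limma's fits over genes, those with single arrays left out aside, the adjusted p of Abcc2 ran from 0.0140 to 0.148, of Abcb1b from 0.0217 to 0.225, of Abcc3 from 0.0797 to 0.666 and of Abcb1a from 0.0423 to 0.641. The cause of these differences was not tested.

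With 1 array left out, Abcc2 lay between 3.08 and 3.80, Abcb1b between 2.60 and 3.69, Abcc3 between 1.90 and 3.04, Abcb1a between 0.50 and 1.13, Abcc1 between -0.10 and 0.63 and Abcc4 between -0.12 and 0.21. Calls over all genes ran from 78 (without colistin array 4) to 254 (without saline array 4), with 98, 106 and 110 without colistin arrays 1, 2 and 3. Among other ABC genes 0 to 1 passed, among carriers 0 to 2, and among conjugation enzymes 0 to 1. The differences between pump genes were not tested by exact permutation with 1 array left out.

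Arrays of the same replicate number did not deviate together (correlations of deviations from -0.0202 to 0.0123 across genes, the best match for 1 of 4 numbers). These values show no pairing by number, but with so few arrays they cannot settle whether samples were paired. With the replicate block 5 genes passed, 0 other ABC genes and 0 carriers, and Abcc2 gave 3.36 (adjusted p = 0.148), and the dimmer Abcb1b probe gave 5.503 (adjusted p = 0.0961). Neither Abcb1a nor Abcc3 could be fitted when every array had to clear background. Probes near background limit Abcb1a and Abcc3 most.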
